A study of Mus musculus with 4 samples.

Results

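Potassium channel genes were taken as every gene model whose symbol starts with Kcn, a family letter and a number, and whose counts over the 4 libraries summed to 40 or more. Of 98 such gene models among the 51826 in the table, 72 met the count limit and 26 did not. Kcnj8 with 40 counts and Kcng1 with 47 lay just inside it, and Kcnj11 with 39 and Kcnd3os with 36 lay just outside. Of the 72 genes, 71 code for a channel subunit, and the other one, Kcnq1ot1, is a noncoding RNA made from the opposite strand of Kcnq1. All 72 entered the test of LysoPS against mock. The rule itself reads the symbol and the summed counts.

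The cells were primary microglia from newborn C57BL/6 mouse brains, shaken off a mixed glial culture after 2 weeks, and the descriptions mark all 4 libraries WT. Microglia are the resident macrophages of the brain, and LysoPS (lysophosphatidylserine) is a phospholipid with a single fatty acid chain that activates the receptor GPR34. One group of 2 libraries received LysoPS for 4 h and held 34689045 and 45193959 counts; the other group of 2 libraries was untreated (mock) and held 30001098 and 41572340 counts. No source used here says that replicates were separate cultures or animals, so p-values measure only the spread between these libraries, which may be technical.

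Potassium channels are membrane pores that let potassium leave or enter a cell along its gradient and so set the resting potential. Families differ in what opens them: voltage, calcium or sodium inside the cell, or, in the leak channels, little more than the gradient itself. In microglia, potassium channels are known for holding the membrane negative, which drives calcium entry, and for the loss of potassium that can start the NLRP3 inflammasome. In astrocytes, inward rectifiers take up the potassium that neurons release.

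In the LysoPS cultures 6 of the 72 genes were higher and 15 were lower at an adjusted p under 0.05 (edgeR quasi-likelihood test, Benjamini-Hochberg over 19057 tested genes). That is 29.2% of the genes called, against 25.5% of all tested genes, so the share as a whole was near the background. Higher genes made up 8.33% of the members, against 12.8% of all tested genes, and lower ones 20.8%, against 12.6%. The 6 higher genes were Kcnab2, Kcnf1, Kcnk6, Kcne2, Kcnk13 and Kcnn4, with log2 fold changes (LysoPS over mock) from 0.79 to 1.2. The 15 lower genes ran from Kcnip3 at -0.42 to Kcna2 at -3.67, and 8 of them at least halved (a log2 fold change of -1 or below). The median over the 72 genes was -0.29, and over all tested genes it was -0.01. Both LysoPS libraries lay above both mock libraries for 14 members (32.5% of all tested genes) and below both for 32 (34.5% of all tested genes). Separation in either direction was seen in 67.0% of all tested genes.

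**Figure D1:**
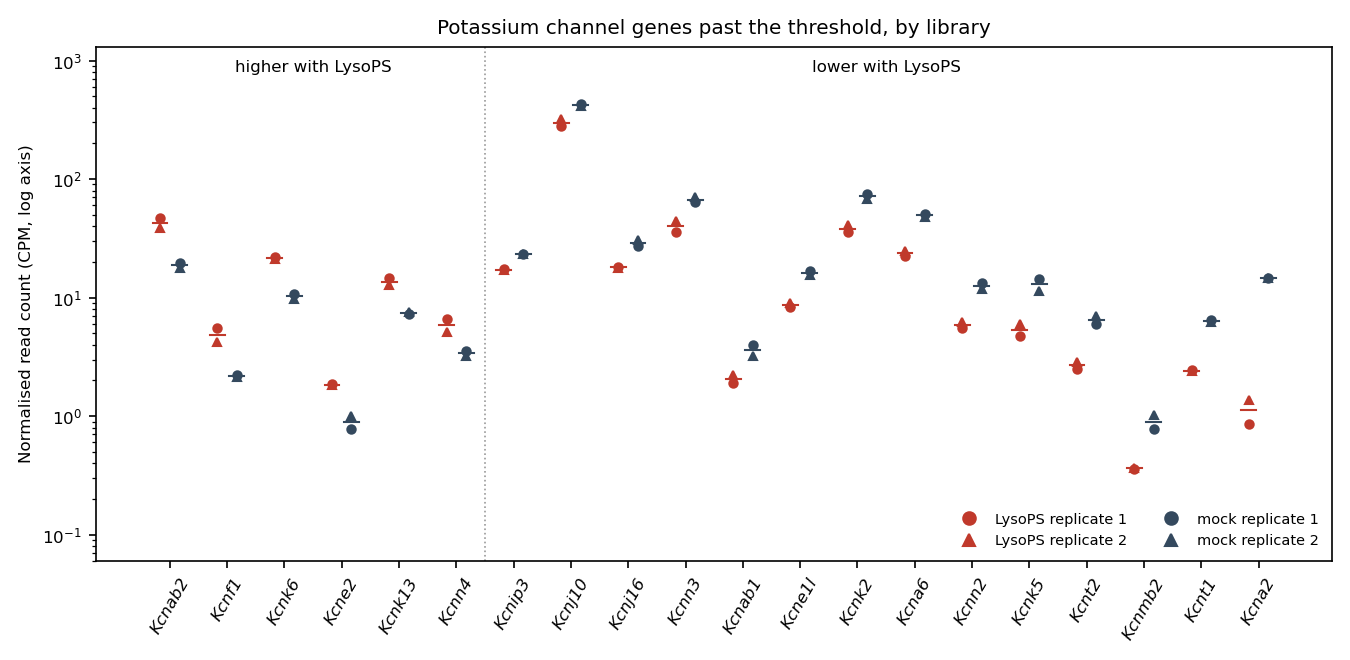
Normalised read count (CPM, scaled to library size, log axis) of 20 of the 21 potassium channel genes past the threshold, with a point per library (LysoPS left of mock, circles replicate 1, triangles replicate 2) and a bar at each group mean. The groups do not overlap for any gene shown, but these genes were chosen by the test on the same libraries. Groups do not overlap for 67.0% of all tested genes. Kcna2 shows the widest gap (1.12 CPM with LysoPS, 14.5 CPM in mock).

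The cultures were not purely microglial. Astrocyte markers summed to between 5896 and 6703 CPM with LysoPS and between 11152 and 12264 CPM in mock, and 11 of 13 were lower and none higher (median log2 fold change -1.06). Microglia and macrophage markers summed to between 4645 and 5216 CPM with LysoPS and between 3249 and 3569.9 CPM in mock, and 10 of 15 gene models for 14 genes were higher and 1 lower (median 0.46). These sums include a further gene model of Itgam, not called, with 232 and 353 CPM with LysoPS and 0.0325 and 43.3 CPM in mock. Cx3cr1 differed widely between replicates, at 176 and 19.5 CPM with LysoPS and 132 and 13.4 CPM in mock. Fibroblast and mural cell markers summed to between 12411 and 12695 CPM with LysoPS and between 14901 and 15015 CPM in mock, with 4 of 12 lower and none higher. Among oligodendrocyte lineage markers 5 of 10 were higher and 1 lower (median 0.37), among neuron markers 1 of 8 was higher and none lower (median 0.16), and among 6 tested endothelial markers 2 were lower and none higher (median -0.56). Of all markers listed, 2 had a library at 0: the endothelial Cldn5, with 2 counts in mock replicate 1 and none elsewhere, and the mural Abcc9, with 6 and 0 counts with LysoPS and 12 and 15 in mock. Which cells each channel transcript came from was not tested, and in bulk RNA fewer cells of a type and less RNA per cell cannot be told apart.

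The 300 bases around the annotated start are shown for a pair of genes that rose and a pair that fell, chosen because their promoters differ in CpG content; the groups as a whole are given after them. The sequences are from RefSeq (GRCm38.p6), all on the plus strand, and the capitals mark CpG dinucleotides. They cover chr12:99964249-99964548 for Kcnk13, chr7:24370013-24370312 for Kcnn4, chr3:107101317-107101616 for Kcna2 and chr1:172340960-172341259 for Kcnj10.
Kcnk13: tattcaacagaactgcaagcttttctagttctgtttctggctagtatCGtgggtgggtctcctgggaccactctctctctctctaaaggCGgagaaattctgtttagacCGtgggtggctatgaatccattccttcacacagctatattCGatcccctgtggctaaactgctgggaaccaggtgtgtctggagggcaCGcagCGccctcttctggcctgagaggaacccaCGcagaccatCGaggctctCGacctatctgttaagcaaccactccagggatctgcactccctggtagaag
Kcnn4: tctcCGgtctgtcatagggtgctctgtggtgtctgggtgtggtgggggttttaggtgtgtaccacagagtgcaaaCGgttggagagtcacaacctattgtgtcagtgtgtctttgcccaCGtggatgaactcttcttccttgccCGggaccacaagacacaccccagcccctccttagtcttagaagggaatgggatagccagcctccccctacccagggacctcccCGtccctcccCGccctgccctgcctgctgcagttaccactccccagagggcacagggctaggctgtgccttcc
Kcna2: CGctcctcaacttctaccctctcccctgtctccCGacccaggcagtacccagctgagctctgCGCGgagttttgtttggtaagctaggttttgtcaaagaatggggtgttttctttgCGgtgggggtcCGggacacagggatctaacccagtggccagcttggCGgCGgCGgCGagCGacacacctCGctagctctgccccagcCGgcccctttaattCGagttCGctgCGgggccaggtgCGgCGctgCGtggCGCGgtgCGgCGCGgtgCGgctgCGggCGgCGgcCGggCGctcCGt
Kcnj10: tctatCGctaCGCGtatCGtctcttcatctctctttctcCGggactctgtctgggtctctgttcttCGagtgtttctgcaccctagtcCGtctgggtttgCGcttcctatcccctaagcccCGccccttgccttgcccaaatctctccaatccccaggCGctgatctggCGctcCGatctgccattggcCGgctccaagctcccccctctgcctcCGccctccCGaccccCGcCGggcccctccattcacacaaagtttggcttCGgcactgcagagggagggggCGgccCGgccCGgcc
Kcnk13 held 9 CpG dinucleotides and Kcnn4 held 6, while Kcna2 held 31 and Kcnj10 held 21. The median over all 32851 promoters in the table was 7, and 26.5% of them held 20 or more. Promoters were found for 54 of the 72 genes, 5 of the 6 that rose and 12 of the 15 that fell. Of the 8 promoters of the rising genes, 1 (of Kcnab2) held 20 or more CpG dinucleotides, and of the 22 promoters of the falling genes 6 did. The median was 5.5 for the rising genes, 8 for the falling genes and 14.5 for the 48 promoters of members that did not pass, of which 35.4% held 20 or more. For motifs, a gene counted if any of its promoters held the letters on either strand. The 12 falling genes had 22 promoters, and all 27025 genes had 32851, so the shares per gene are not strictly alike. The AP-1 motif TGANTCA was in none of the 5 rising genes, in 2 of the 12 falling genes and in 8.97% of all genes with a promoter. GAGGAAG, the core bound by PU.1, was in none of the rising genes, in 4 falling genes and in 15.4% of all genes, and the TATA box TATAAA was in none, in 2 and in 15.7%. A kappaB-like motif was in none of the rising genes, in 1 falling gene and in 5.48% of all genes. These are matches of letters in short windows and say nothing about binding.

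Of the K2P channels, which pass a steady leak current, Kcnk6 and Kcnk13 were higher and Kcnk2 and Kcnk5 lower among 9 members (44.4% called, against 25.5% of all tested genes). Kcnk6 encodes TWIK2, through which mouse macrophages lose potassium before NLRP3 activation. It stood at 21.9 and 21 CPM in the LysoPS libraries, against 10.8 and 9.66 CPM in mock. The groups lay far apart relative to their replicates, at 21.5 ± 0.671 CPM with LysoPS and 10.2 ± 0.809 CPM in mock (SD, n = 2 each; log2 fold change 1.07, SE 0.11, adjusted p = 0.00377 by edgeR). The position of Kcnk6 is chromosome 7, 29221926 to 29232515, minus strand (GRCm38). Kcnk13 encodes THIK1, the tonically active leak channel that sets the resting potential of microglia in mice. It stood at 14.5 and 12.8 CPM with LysoPS, against 7.30 and 7.49 CPM in mock. Both LysoPS libraries were above both mock libraries (log2 fold change 0.88, SE 0.12, adjusted p = 0.00805 by edgeR). Kcnk13 occupies chromosome 12, 99964499 to 100062682, plus strand.

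Kcnk2, which encodes the stretch- and lipid-sensitive TREK1 known in astrocytes and neurons, was the most abundant K2P transcript per length in both groups. It stood at 35.7 and 40.7 CPM with LysoPS, against 75.0 and 68.1 CPM in mock. All LysoPS values were below the mock values, with a log2 fold change of -0.90 (SE 0.10, adjusted p = 0.00465 by edgeR). Some exons of Kcnk2 overlap A430027H14Rik on the other strand, and reads of the 2 could not be told apart if strand was not kept. Kcnk5 encodes TASK2, an alkaline-activated channel known for cell volume control. It stood at 4.72 and 6.04 CPM with LysoPS, against 14.4 and 11.4 CPM in mock, without overlap of the groups (log2 fold change -1.26, SE 0.19, adjusted p = 0.0105 by edgeR). Kcnk1 (TWIK1) had 12.1 and 13.6 CPM with LysoPS against 15.1 and 14.1 CPM in mock, and Kcnk10 (TREK2) had 15.9 and 20.2 CPM against 20.7 and 22.6 CPM. Neither passed the test (log2 fold changes -0.18 and -0.26), and the other 3 K2P genes, Kcnk3, Kcnk7 and Kcnk12, stayed under 1 CPM in every library.

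**Figure D2:**
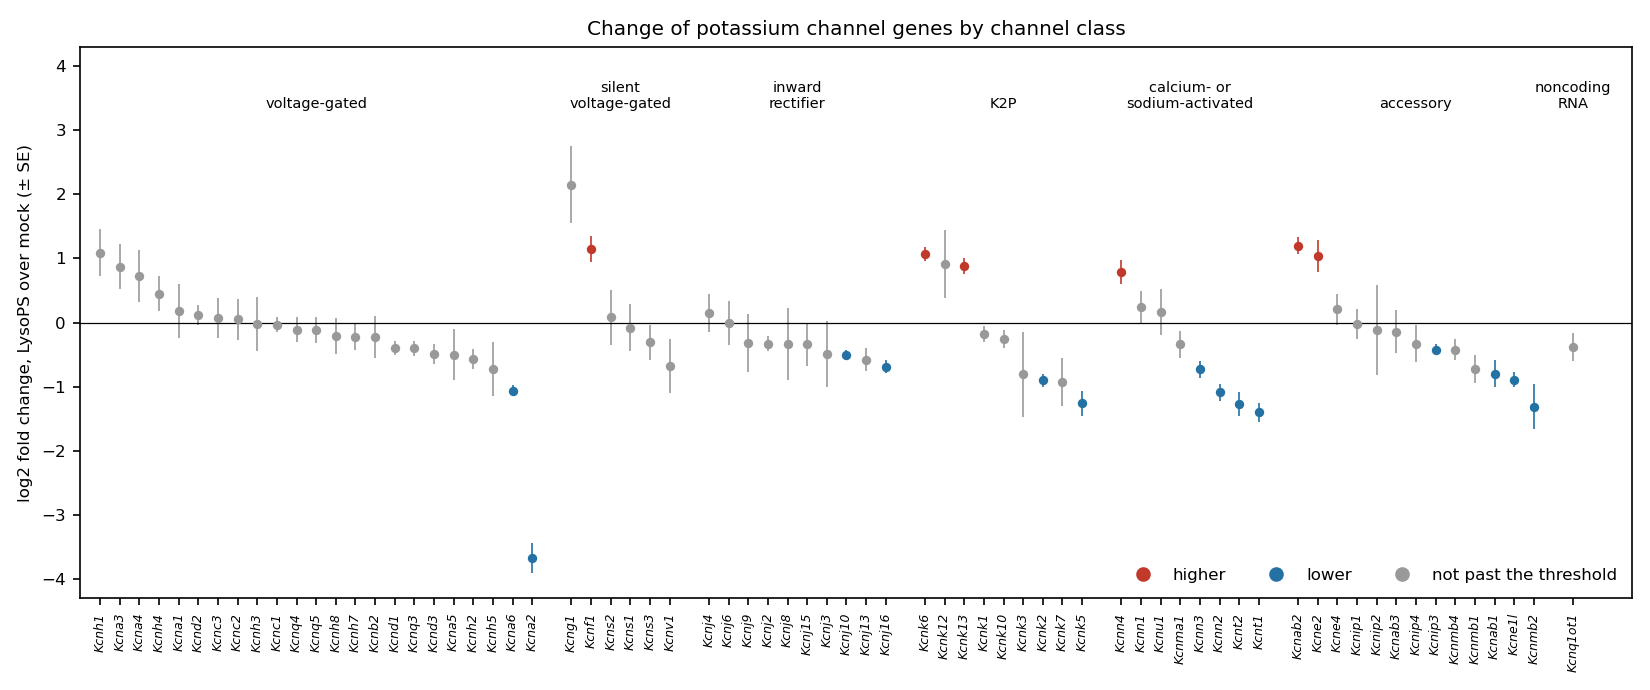
Log2 fold change (LysoPS over mock, y axis) of 70 of the 72 genes with its standard error, grouped by channel class along the x axis, with colour for the genes past the threshold. Kcna2 at -3.67 lies below all others. The highest point, Kcng1 at 2.15, did not pass the test and met the count limit mainly through LysoPS reads.

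Among 8 calcium- or sodium-activated channel genes, 1 was higher and 4 lower (62.5% called, against 25.5% of all tested genes). Kcnn4 encodes the intermediate-conductance calcium-activated channel of macrophages and microglia, which supports calcium entry and migration. It stood at 6.57 and 5.10 CPM with LysoPS, against 3.57 and 3.19 CPM in mock. LysoPS values were all above the mock values (log2 fold change 0.79, SE 0.19, adjusted p = 0.0379 by edgeR). The call of Kcnn4 was lost without LysoPS replicate 1 (log2 fold change 0.59, adjusted p = 0.0877 by edgeR), without mock replicate 1 (0.87, adjusted p = 0.1) and without mock replicate 2 (0.71, adjusted p = 0.165).

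Of the 3 small-conductance channels, Kcnn2 and Kcnn3 were lower and Kcnn1 did not pass. Kcnn3 (SK3) stood at 35.9 and 44.7 CPM with LysoPS, against 63.9 and 70.2 CPM in mock. These groups did not overlap (log2 fold change -0.73, SE 0.13, adjusted p = 0.0155 by edgeR; 0.0664 without mock replicate 2). Kcnn2 (SK2) stood at 5.53 and 6.22 CPM with LysoPS, against 13.2 and 11.8 CPM in mock, a clear gap (log2 fold change -1.09, SE 0.13, adjusted p = 0.00592 by edgeR). Exons of Kcnn2 overlap A330093E20Rik and AC121957.1 on the other strand. The sodium-activated Kcnt1 (Slack) stood at 2.45 and 2.38 CPM with LysoPS, against 6.52 and 6.24 CPM in mock. Its relative Kcnt2 (Slick) stood at 2.48 and 2.88 CPM with LysoPS, against 5.94 and 7.05 CPM in mock. Exons of Kcnt2 overlap 4930590L20Rik on the other strand. Both genes fell, with log2 fold changes of -1.40 (SE 0.15, adjusted p = 0.00396) and -1.27 (SE 0.18, adjusted p = 0.00809) by edgeR. Kcnn1, Kcnma1 and Kcnu1 did not pass, and none exceeded 3.23 CPM.

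Inward rectifiers conduct best at negative potentials, and 2 of 10 were lower and none higher (20% called, against 25.5% of all tested genes). Kcnj10 encodes Kir4.1, the main potassium uptake channel of astrocytes. It had the highest level per length of all members, at 97.0 and 116 TPM with LysoPS and 171 and 167 TPM in mock, and made up between 28.8% and 31.6% of the TPM summed over the 71 coding members in each library. Kcnj10 stood at 280.1 and 318 CPM with LysoPS, against 433 and 412 CPM in mock. The libraries of the 2 groups did not overlap (log2 fold change -0.50, SE 0.08, adjusted p = 0.0130 by edgeR). Without mock replicate 1 the adjusted p was 0.0702. Its position is chromosome 1, 172341210 to 172374085, plus strand. Kcnj16 encodes Kir5.1, the partner of Kir4.1 in mixed channels. It stood at 18.2 and 17.8 CPM with LysoPS, against 27.5 and 30.4 CPM in mock (log2 fold change -0.69, SE 0.10, adjusted p = 0.00845 by edgeR), and both LysoPS values were below both mock values. Astrocyte markers were lower in the same libraries (median -1.06), and their part in the fall of Kcnj10 and Kcnj16 was not tested.

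Kcnj2 encodes Kir2.1, the classical inward rectifier of resting microglia. It stood at 15.9 and 17.8 CPM with LysoPS, against 19.7 and 22.7 CPM in mock. The LysoPS values were the lower ones, but the difference did not pass (log2 fold change -0.33, SE 0.12, adjusted p = 0.111 by edgeR). Kcnj13 (Kir7.1), known in choroid plexus and pigment epithelium, stood at 6.99 and 5.44 CPM with LysoPS, against 8.57 and 9.97 CPM in mock. It did not pass either (log2 fold change -0.58, adjusted p = 0.0681 by edgeR). The log2 fold change of Kcnj13 ran from -0.77 to -0.41 with each library left out. Its gene shares exonic sequence with Gigyf2 on the other strand. Of 7 choroid plexus and ependymal markers 2 were higher (Ttr and Clic6) and 3 lower (Foxj1, Ccdc153 and Tmem212). The 7 markers summed to 1168 and 946 CPM with LysoPS, against 409.5 and 405 CPM in mock. Ttr made up most of the sum with LysoPS. The lower Foxj1 stood at 159 and 165 CPM with LysoPS, against 251 and 241 CPM in mock. The secreted Ttr stood at 972 and 749 CPM with LysoPS, against 117 and 121 CPM in mock (log2 fold change 2.85), and its part in Kcnj13 was not tested. The other 6 inward rectifiers, Kcnj3, Kcnj4, Kcnj6, Kcnj8, Kcnj9 and Kcnj15, reached at most 2.04 CPM, and their groups overlapped in every case.

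**Figure D3:**
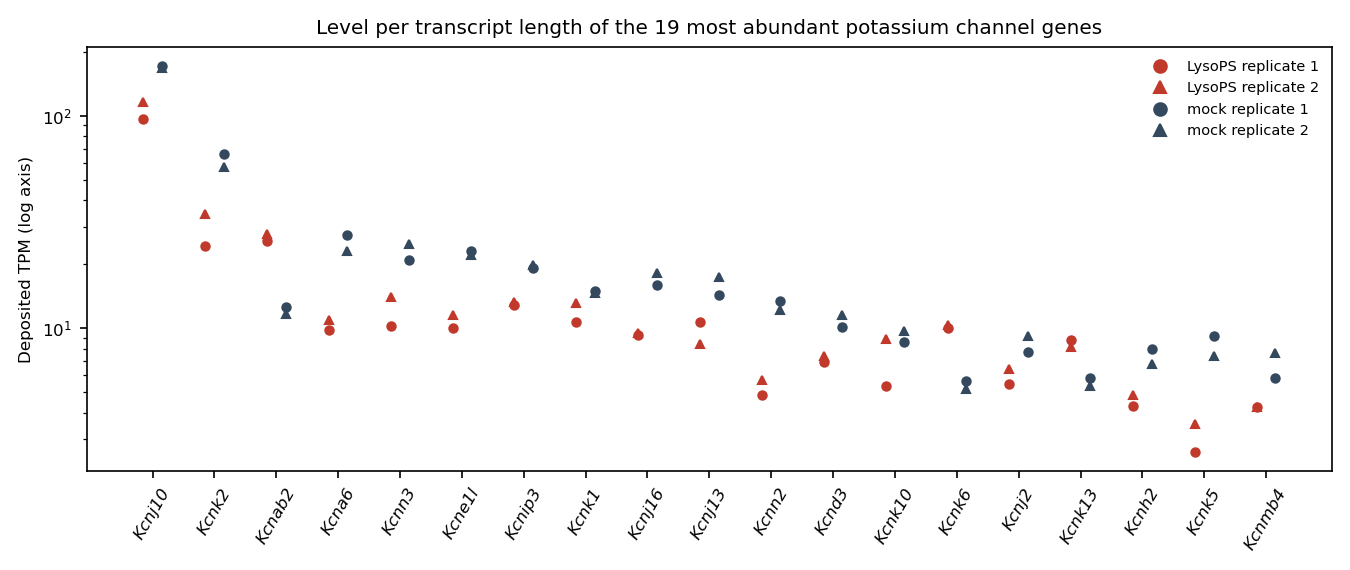
Deposited TPM, a level per transcript length (log axis), of the 19 members with a mean of at least 5 TPM, ordered by their mean, with LysoPS left of mock. Kcnj10 lies above all others in every library, and Kcnab2 has rank 3 with LysoPS (25.8 and 27.9 TPM) and rank 11 in mock (12.6 and 11.7 TPM).

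Voltage-gated channel genes included the largest fall among the members. Of 25, 3 were lower and none higher, and the share of lower genes (12%) was near that of all tested genes (12.6%). Kcna2 encodes Kv1.2, a delayed rectifier best known in axons. It held 29 and 60 reads in the LysoPS libraries, against 449 and 625 reads in mock, or 0.866 and 1.37 CPM against 14.6 and 14.5 CPM. Its LysoPS values were a small fraction of the mock values, with a log2 fold change of -3.67 (SE 0.23, adjusted p = 0.000998 by edgeR), and the fold change was between -4.06 and -3.40 with each library left out. The length of transcript that counts and FPKM together imply was 3216 and 3201 bases with LysoPS and 9493 and 8438 bases in mock. GENCODE M21 annotates 3 Kcna2 transcripts, of 11582, 4370 and 2430 bases. All share exon 2 (chromosome 3, 107103184 to 107103511, plus strand) and the start of exon 3 at 107103945, and they end at 107115005, 107107737 and 107105971. The deposited FPKM, which divides by the length of the assigned transcripts, was 0.230 and 0.366 with LysoPS and 1.40 and 1.57 in mock. On the log2(FPKM + 0.1) scale the difference was -2.01, in the same direction and smaller than that of the counts. No exon of another annotated gene overlaps Kcna2.

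**Figure D4:**
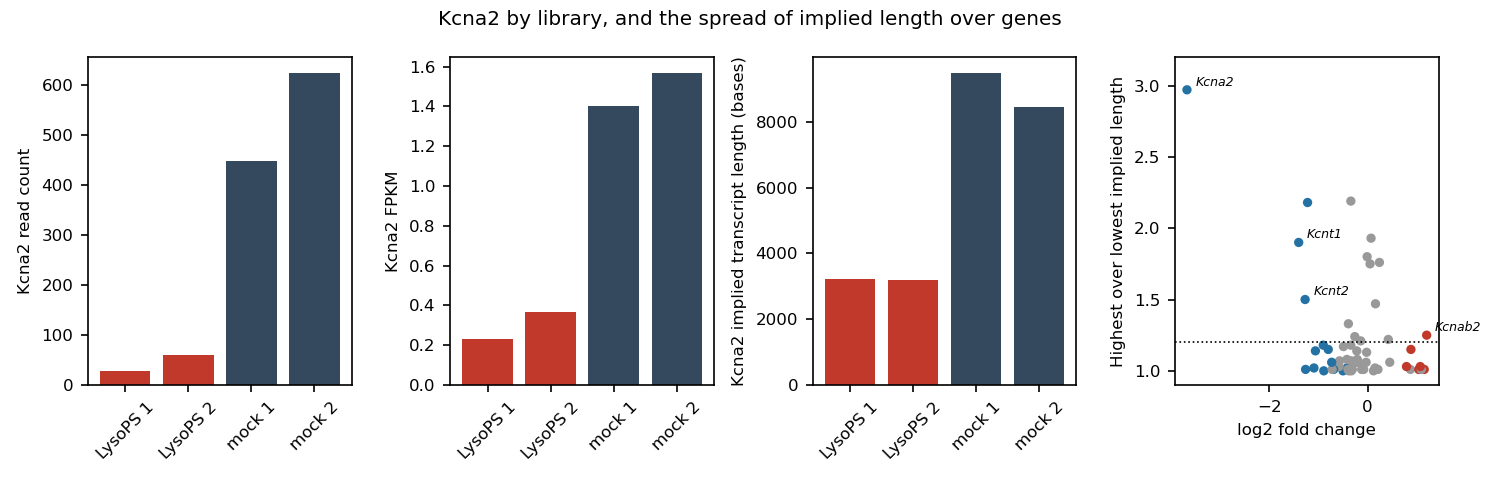
Read count, FPKM and implied transcript length of Kcna2 in each library (bars from 0, LysoPS left of mock), and, at the right, the ratio of the highest to the lowest implied length against the log2 fold change for the 56 members with at least 20 counts in each library. Implied length was 3216 and 3201 bases in the LysoPS libraries and 9493 and 8438 bases in the mock libraries, and the dotted line marks a ratio of 1.2.

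The nearest other member, Kcna3, lies on the same strand 63076 bases before Kcna2 (chromosome 3, 107036169 to 107038070) and went the other way in value. It encodes Kv1.3, the voltage-gated channel of activated microglia and T cells. Kcna3 stood at 3.53 and 6.06 CPM with LysoPS, against 2.01 and 3.21 CPM in mock. LysoPS values were the higher ones by a narrow margin, and the spread within each group was wide (log2 fold change 0.87, SE 0.35, adjusted p = 0.138 by edgeR). Leaving out LysoPS replicate 2 brought the log2 fold change to 0.42. Its implied length varied by 1.01 times between libraries. Kcna2 and Kcna3 thus differed in sign, though only Kcna2 passed the test and the difference between them was not tested.

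Kcna6 (Kv1.6) was also called. It stood at 22.6 and 24.8 CPM with LysoPS, against 51.2 and 47.4 CPM in mock, with a wide gap (log2 fold change -1.06, SE 0.09, adjusted p = 0.00245 by edgeR). Gm26673 overlaps its exons on the other strand. Among other called members whose implied length varied by over 1.2 times, Kcnt1 varied by 1.90 times, Kcnt2 by 1.5 and Kcnab2 by 1.25. Among members with at least 20 counts in each library 15 of 56 (26.8%) varied by more than that, against 14.4% of all such tested genes.

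The remaining 22 voltage-gated genes did not pass. Kcnh2 (the ERG channel) came closest, at 6.66 and 7.39 CPM with LysoPS against 11.6 and 9.32 CPM in mock (log2 fold change -0.57, adjusted p = 0.0537 by edgeR). It passed under 4 alternatives: without a filter, with the 5 CPM filter, with robust dispersion and by DESeq2. Kcnh2 did not pass in edgeR with DESeq2 size factors (adjusted p = 0.0572), by limma-voom (adjusted p = 0.0628) or against the fold threshold. With each library left out its log2 fold change ran from -0.72 to -0.41. Kcnd1, Kcnd3 and Kcnq3 did not pass and had log2 fold changes of -0.39, -0.49 and -0.40. Both LysoPS libraries lay below both mock libraries for these 3 genes. Of all 25 voltage-gated genes 10 lay below in this way and 5 above, against 34.5% and 32.5% of all tested genes. Kcnc1 (Kv3.1) had 12.9 and 14.5 CPM with LysoPS and 14.3 and 13.6 CPM in mock, and Kcnd2 (Kv4.2) had 7.02 and 7.89 CPM against 6.17 and 7.51 CPM. Their groups overlapped, as did those of Kcnh7. Of 13 further voltage-gated genes none exceeded 4.74 CPM in any library.

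Silent subunits make no channel alone but change the gating of other voltage-gated subunits. Kcnf1 (Kv5.1) was the 1 of 6 that was called (16.7%, against 25.5% of all tested genes). It stood at 5.53 and 4.21 CPM with LysoPS, against 2.24 and 2.13 CPM in mock, without overlap (log2 fold change 1.15, SE 0.20, adjusted p = 0.0161 by edgeR). The adjusted p was 0.0579 without mock replicate 1 and 0.0728 without mock replicate 2. Kcng1 had the highest fold change of all members, 2.15, but rested on 11 and 28 reads with LysoPS and 4 and 4 reads in mock and did not pass (adjusted p = 0.0562 by edgeR).

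Accessory subunits bind the pore-forming proteins and set their traffic and gating, and 2 of 13 were higher and 4 lower (46.2% called, against 25.5% of all tested genes). Kcnab2, the beta subunit of Kv1 channels with an aldo-keto reductase fold, stood at 47.0 and 38.6 CPM with LysoPS, against 19.7 and 17.7 CPM in mock. It was the largest rise that passed (log2 fold change 1.2, SE 0.13, adjusted p = 0.00417 by edgeR). It occupies chromosome 4, 152390742 to 152477871, minus strand, where Gm16334 overlaps its exons in the same orientation, so reads of the 2 could be split between them. Its relative Kcnab1 was lower, at 1.91 and 2.22 CPM with LysoPS against 4.02 and 3.21 CPM in mock (log2 fold change -0.80, adjusted p = 0.0471 by edgeR). Leaving out any 1 library ended that call (adjusted p from 0.0564 to 0.218). Exons of Kcnab1 overlap A330015K06Rik on the other strand.

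Kcne1l, which encodes a single-span subunit of the KCNE family, stood at 8.27 and 9.06 CPM with LysoPS, against 16.6 and 15.6 CPM in mock, without overlap (log2 fold change -0.89, SE 0.12, adjusted p = 0.00669 by edgeR). Kcnip3 encodes a calcium-binding protein that joins Kv4 channels and also acts as the transcriptional repressor DREAM. It stood at 17.4 and 17.1 CPM with LysoPS, against 23.2 and 23.1 CPM in mock. The replicates were close and the groups apart (log2 fold change -0.42, SE 0.09, adjusted p = 0.0259 by edgeR; 0.141 without mock replicate 1 and 0.129 without mock replicate 2). Kcne2, known in choroid plexus and heart, stood at 1.85 and 1.83 CPM with LysoPS, against 0.779 and 0.994 CPM in mock (log2 fold change 1.04, adjusted p = 0.0382 by edgeR). Kcnmb2, a beta subunit of the large-conductance calcium-activated channel, held 12 and 16 reads with LysoPS, against 24 and 44 reads in mock (log2 fold change -1.31, adjusted p = 0.0478 by edgeR). Leaving out any 1 library ended both calls, with adjusted p from 0.0776 to 0.183 for Kcne2 and from 0.119 to 0.292 for Kcnmb2. Kcnq1ot1, the noncoding member, stood at 15.1 and 19.5 CPM with LysoPS, against 18.5 and 26.6 CPM in mock, with overlapping groups (adjusted p = 0.256 by edgeR).

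When the test asked for a change of more than 1.5 times, 1064 of 19057 tested genes passed, 683 higher and 381 lower. Of the 72 members 8 passed, 2 higher and 6 lower. Among them were Kcnab2 and Kcnk6, which were higher, and Kcna2, Kcna6, Kcnn2, Kcnt1 and Kcnt2, which were lower. The 37 members not named singly for their level or call ranged from 0.0925 to 4.8 CPM in any library. None passed, because called members were not counted among these 37. Their groups overlapped in 22 cases, and those of all tested genes in 6294 of 19057.

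Genes that act beside these channels were tested in the same fit, and each gene named here passed the threshold. Of 8 NLRP3 pathway genes 5 were higher and 1 lower (median log2 fold change 1.10). The sensor Nlrp3 stood at 18.1 and 21.3 CPM with LysoPS against 6.36 and 6.24 CPM in mock (1.64). Casp1 also rose (1.84), and the lower gene was Txnip (-0.90). Of 23 other cation and volume-regulated channels 9 were higher and 3 lower (median 0.17). They included the ATP-gated P2rx4, at 80.1 and 77.0 CPM with LysoPS against 37.8 and 39.7 CPM in mock (1.02), and the proton channel Hvcn1 (1.24). Of 16 genes of the sodium-potassium pump and the potassium cotransporters 2 were higher and 6 lower (median -0.18). The astrocytic pump subunit Atp1b2 (-0.68) fell, and the cotransporter Slc12a7 (0.66) rose. Of 13 store-operated calcium entry genes 3 were higher, Orai2 (0.67) among them, and 1 lower (median -0.03). Of 18 tested partners and regulators of potassium channels 3 were higher and 3 lower (median -0.11), with the kinase Stk39 at -0.93. The background for either direction together was 25.5%, and the astrocyte and microglia marker lists moved in the same libraries, whose part in these counts was not tested.

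**Figure D5:**
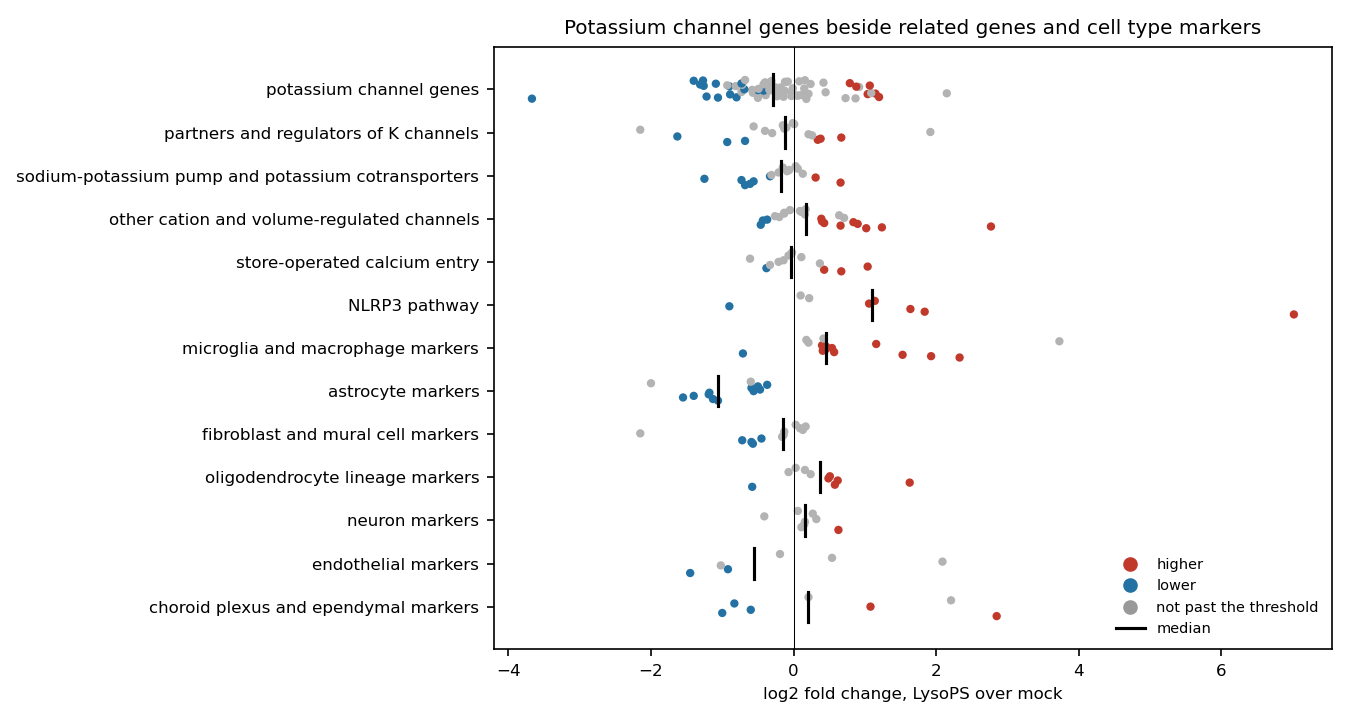
Log2 fold change (LysoPS over mock, x axis) of each tested gene in the potassium channel set, in 5 lists of related genes and in 7 lists of cell type markers, with a black bar at each list's median. The potassium channel genes have a median of -0.29, the astrocyte markers one of -1.06 and the microglia and macrophage markers one of 0.46.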

How the data were processed

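Messenger RNA was selected with poly-T beads and sequenced paired-end on MGISEQ2000 instruments, per the labels' protocols. The treatment label mentions 1 treated replicate, but LysoPS stands in the labels of 2 samples, which were followed. FastQC 0.11.2, Trimmomatic 0.36, HISAT2, StringTie and the build GRCm38 are listed in the submitters' processing notes. Not given in the sources used here are the counting program, the annotation release and strand handling. The authors deposited raw counts, TPM and FPKM for each gene model and library, per the file headers. The deposited TPM were used for levels between genes, and the deposited FPKM only with counts to derive an implied transcript length.

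The deposited counts entered edgeR 4.0.16 (R 4.3.3). Gene models passing filterByExpr (minimum count 10) were scaled by TMM and tested with the quasi-likelihood F test (two-sided, 2 residual degrees of freedom), and p-values were adjusted by Benjamini-Hochberg over 19057 genes with a threshold of 0.05. CPM use TMM-scaled library sizes. Implied length is the count divided by FPKM and library total, scaled so that genes with 1 transcript of at least 500 bases and 100 counts match their GENCODE M21 length. Of the 72 genes, 61 had the same coordinates in GENCODE M21, and 25 shared exon positions with another gene. Named singly were members past the threshold, those averaging at least 5 CPM in a group, and Kcna2, Kcna3, Kcnj2, Kcnk6, Kcnk13 and Kcnn4; Kcng1, the low members given by name and the promoters shown were picked with their values in view. From each list up to 4 genes with the smallest p were eligible. The members and lists were chosen with earlier results of these data known. The alternatives were DESeq2 1.42.0 and its size factors, other filters, robust dispersion, limma-voom (limma 3.58.1), leaving out each library, blocking on replicate number, a fold threshold of 1.5 and the deposited TPM and FPKM. The fit was tested on simulated data. Results for a few genes are not reported here, though they remain in the counts and medians.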

Additional observations from a re-analysis of the deposited data

How the results depend on the processing

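Of the 21 called members, 13 kept direction and call in every refit other than that with the fold threshold, and none changed sign. The deposited TPM and FPKM, which carry no call, are not among these refits. Neither is the limit on implied length, which leaves out Kcna2 and other called members. The number called was 21 with DESeq2 size factors, 22 without a filter and with robust dispersion, 18 with at least 5 CPM in 2 libraries, 19 by DESeq2 and by limma-voom, and 15 of 41 with a stable implied length. Against a fold change of 1.5 it was 8, with 1064 of all genes and 10 of 78 related genes, where the test without that null gave 4854 and 36. Leaving out a library gave between 14 and 19 members, between 2165 and 5356 of all genes (2223 without mock replicate 1, 2165 without mock replicate 2) and between 18 and 35 related genes. The median over members was -0.29 and became -0.51 with the 5 CPM filter, which tests 29 members only; leaving out a library gave -0.39 to -0.15. With the replicate block 21 members were called, of which 3 differed (Kcnab1, Kcne2 and Kcnmb2 lost the call, and Kcna3, Kcnd3 and Kcnq1ot1 gained it, Kcna3 with an adjusted p of 0.0272), and all genes gave 5433. The labels do not say that replicate numbers pair the samples, so the main fit did not use them. Over all tested genes, same-numbered libraries deviated together only weakly (correlation 0.0775). With 2 libraries per group both pairs must give the same value, so it cannot decide whether samples were paired. Cx3cr1, picked from the marker lists, followed the number, and Gja1, picked from the same lists, did not. Cx3cr1 stood at 176 (LysoPS) and 132 CPM (mock) in replicate 1 and 19.5 and 13.4 CPM in replicate 2. Gja1 stood at 141 (LysoPS) and 1450.1 CPM (mock) in replicate 1 and 375 and 619 CPM in replicate 2. Kcnc1 turned to 0.05 without LysoPS replicate 1 and 0.01 without mock replicate 1 (range -0.11 to 0.05), and Kcnd2 to -0.01 without mock replicate 1 (range -0.01 to 0.27) and -0.04 on TPM. Kcnh2 gained a call without a filter, with the 5 CPM filter, with robust dispersion and by DESeq2, Kcnd1 with the 5 CPM filter and Kcnj13 without LysoPS replicate 1. The causes were not tested. On TPM the median of all tested genes shifted to -0.18, against -0.01 with TMM, and Kcna2 stood at -2.26. Members with few counts rest on little depth: Kcnj8 had 40 counts in all and Kcng1 had 47, and neither passed.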
